A study of Mus musculus with 12 samples.

Results

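Expression of 10 genes that encode Polycomb and DNA methylation enzymes was examined in Shh-type medulloblastoma (MB) of *Ptch+/-* mice with and without loss of *Ndp*. The genes were *Ezh1*, *Ezh2*, *Eed*, *Suz12*, *Dnmt1*, *Dnmt3a*, *Dnmt3b*, *Uhrf1*, *Tet1* and *Tet3*. They were chosen by symbol from 19057 genes with a probe on the array, and for each the probe with the highest mean log2 signal over the 12 arrays was taken.

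Illumina whole-genome mouse BeadChips had been hybridised with RNA of 12 samples, 1 array each, which comprised *NdpKO;Ptch+/-* MBs, MBs of *Ptch+/-* mice with intact *Ndp*, and granule neuron progenitors (GNPs) of wild-type (WT) mice (4 samples a group). *Ndp* is the X-linked gene for Norrin, a secreted ligand of the *Fzd4* receptor on endothelial cells. *NdpKO;Ptch+/-* mice were males in which a lacZ cassette disrupts *Ndp*, and their strain background is given as mixed, whereas *Ptch+/-* and WT mice are listed as C57Bl/6. Although the study drew its controls from the same breeding cohort, genotype and the labelled strain cannot be told apart between the 2 kinds of tumor. The paper states that additional controls included both sexes, and it reports a shorter mean latency of MB in *NdpKO;Ptch+/-* mice. Sex and age at tumor may therefore differ with genotype as well. Tumors came from symptomatic mice whose age is not in the labels. GNPs, the cells of origin of this tumor, were purified from P6 cerebella on a percoll gradient with pre-plating. A comparison of MB with GNPs thus sets whole tumor tissue of older mice against a neonatal cell preparation. The GNP samples also gave signal for oligodendrocyte, endothelial and hemoglobin genes (values below), so they cannot be taken as a pure cell type. The *Ndp* probe read 4.12 to 4.16 in *NdpKO;Ptch+/-* MBs and 4.14 to 4.21 both in *Ptch+/-* MBs and in GNPs, which is background on every array, so it gave no check of the genotypes.

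Polycomb repressive complex 2 (PRC2) silences genes by methylating a lysine in the tail of histone H3, with *Ezh1* or *Ezh2* as its catalytic subunit and *Eed* and *Suz12* as obligatory partners. *Dnmt1* copies DNA methylation onto new strands after replication and is recruited there by *Uhrf1*, while *Dnmt3a* and *Dnmt3b* methylate unmodified sites, and Tet proteins oxidize methylcytosine as a step towards its removal. In the cerebellum, *Ezh2*, *Dnmt1* and *Uhrf1* are known as genes of dividing progenitors, and they are targets of E2F factors in proliferating cells.

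The starts of the genes that the results turn on are shown first, with the matches to an E2F-type motif. RefSeq promoter windows of 300 bases (GRCm38.p6, 250 bases before to 50 bases after a transcription start) were searched on both strands for TTTNGCGC. The motif was chosen after the expression values had been seen. It occurred in 452 of 32851 windows of this length (1.38%) and in 3 of the 15 windows of the 10 genes, 1 each of *Ezh2*, *Dnmt1* and *Uhrf1*. The windows are written 5′ to 3′ on the strand of the gene, with matches in capitals, for *Ezh2* (chr6:47594981-47595280, minus strand), *Dnmt1* (chr9:20952574-20952873, minus strand), *Uhrf1* (chr17:56304063-56304362, plus strand) and, as the gene that was lower in *Ptch+/-* MBs than in GNPs, *Eed* (chr7:89980927-89981226, minus strand).
Ezh2: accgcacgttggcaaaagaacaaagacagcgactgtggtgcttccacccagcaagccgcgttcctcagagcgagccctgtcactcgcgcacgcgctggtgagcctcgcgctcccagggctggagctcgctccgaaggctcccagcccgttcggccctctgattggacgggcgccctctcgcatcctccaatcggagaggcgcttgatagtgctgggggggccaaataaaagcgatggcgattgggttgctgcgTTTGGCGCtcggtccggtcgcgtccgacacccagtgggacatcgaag
Dnmt1: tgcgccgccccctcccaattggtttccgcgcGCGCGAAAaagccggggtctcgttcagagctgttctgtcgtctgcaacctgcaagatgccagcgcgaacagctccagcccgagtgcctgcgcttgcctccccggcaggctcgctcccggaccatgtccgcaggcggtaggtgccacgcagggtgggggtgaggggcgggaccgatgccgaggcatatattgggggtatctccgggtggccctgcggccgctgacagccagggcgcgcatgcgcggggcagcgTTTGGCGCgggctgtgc
Uhrf1: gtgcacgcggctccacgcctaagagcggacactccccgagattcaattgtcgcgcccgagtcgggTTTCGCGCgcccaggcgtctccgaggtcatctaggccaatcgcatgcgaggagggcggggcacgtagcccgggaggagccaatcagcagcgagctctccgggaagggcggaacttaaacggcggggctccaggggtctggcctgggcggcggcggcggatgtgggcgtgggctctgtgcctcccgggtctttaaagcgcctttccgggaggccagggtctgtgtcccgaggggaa
Eed: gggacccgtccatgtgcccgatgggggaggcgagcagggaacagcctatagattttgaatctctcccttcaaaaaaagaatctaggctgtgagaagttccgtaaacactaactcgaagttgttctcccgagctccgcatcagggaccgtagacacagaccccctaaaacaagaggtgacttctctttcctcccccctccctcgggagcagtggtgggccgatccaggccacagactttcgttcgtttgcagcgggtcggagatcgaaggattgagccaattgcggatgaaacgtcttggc

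The *Ezh2* match began at base 254 of its window, just after the transcription start. The *Dnmt1* window held 2 matches, at base 32 on the opposite strand (GCGCGAAA as printed) and at base 284, and the other 2 *Dnmt1* windows held none. The *Uhrf1* match began at base 66, and the other *Uhrf1* window had none. No match was found in the windows of *Ezh1*, *Eed*, *Suz12*, *Dnmt3a*, *Dnmt3b*, *Tet1* or *Tet3*, which says only that these letters are not in those windows. The motif itself holds CpG dinucleotides. These numbered 31 in the *Ezh2* window and 33 in the printed windows of *Dnmt1* and *Uhrf1*. Unmatched windows held 2 and 12 (*Dnmt1*), 12 (*Uhrf1*), 17 (*Eed* and *Tet1*), 22 (*Tet3*), 23 (*Ezh1*), 30 (*Dnmt3b*), 41 (*Suz12*) and 18, 46 and 47 (*Dnmt3a*). Those with 41, 46 and 47 held more than the matched windows, and the other unmatched windows held fewer. The median over all windows was 7, so the 1.38% of all windows is not a like comparison for the windows of these genes. The part of CpG number in the matches was not tested.

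Of the 10 genes, 7 gave a log2 signal of at least 4.5 on every array, a limit taken as the edge of background after the values had been seen. *Ezh1* passed this limit on some arrays only. *Dnmt3a* and *Tet3* stayed under it on all 12 arrays with each of their 3 probes, so they have no measured level and no fold change here. The remaining comparisons therefore rest on 8 genes. All differences below are differences in log2 signal of the same probe, and probes of different genes were not set against each other. The titles give each tumor and each GNP sample its own number, and the study describes its WT GNP arrays as made from separate animals, so the spread between samples was taken as that between animals. In bulk RNA fewer cells of a type and less RNA per cell cannot be told apart.

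**Figure D1:**
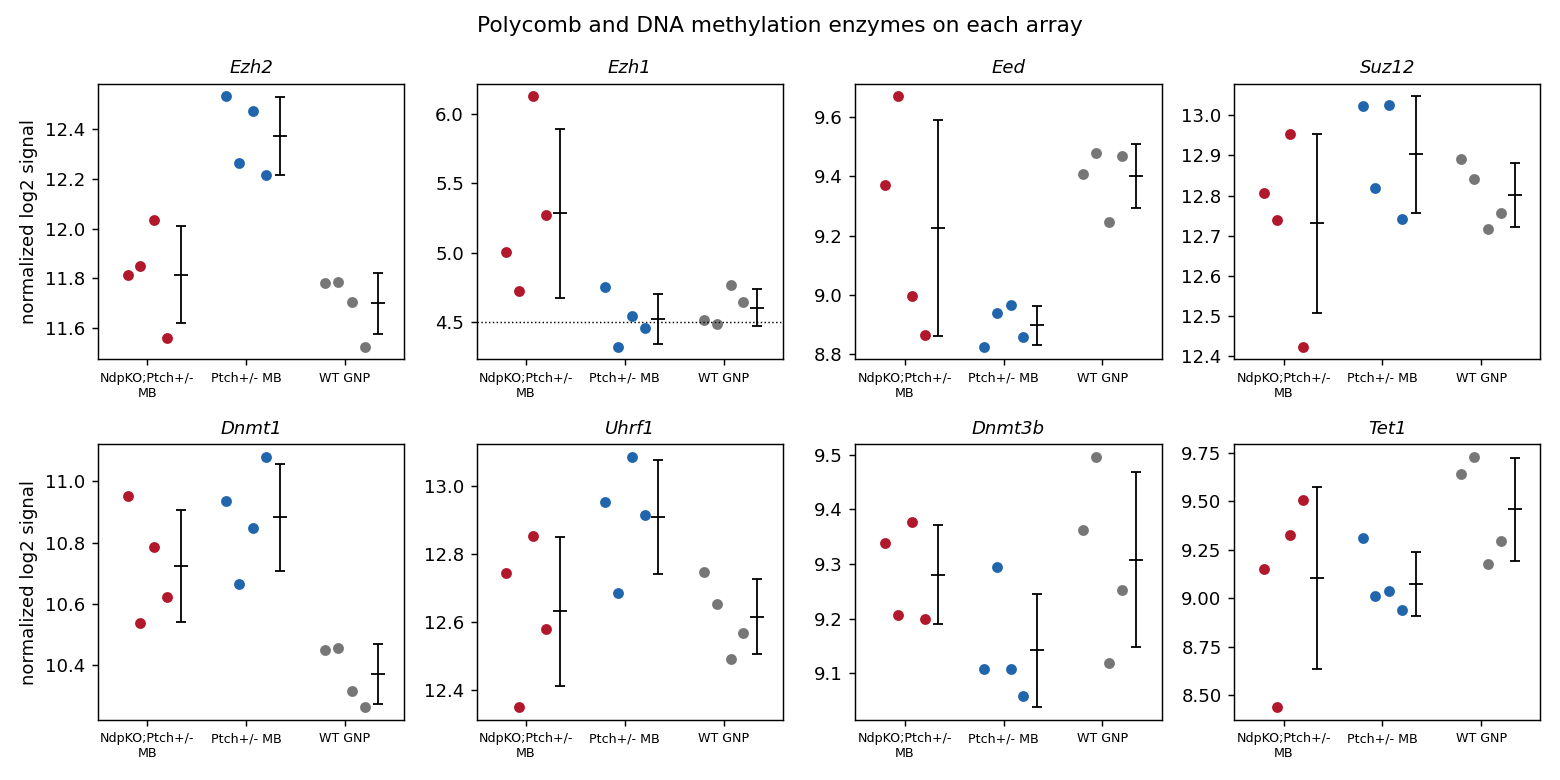
Normalized log2 signal (vertical axis, a separate scale for each gene) of the 8 measured genes in *NdpKO;Ptch+/-* MBs (red), *Ptch+/-* MBs (blue) and WT GNPs (grey). Each point is 1 array and bars give the mean ± SD (n = 4), with the background limit of 4.5 dotted for *Ezh1*. The 4 *Ptch+/-* MBs lie above all other samples for *Ezh2*, and all tumors lie above GNPs for *Dnmt1*.

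*Ezh2*, the catalytic subunit of PRC2 in dividing cells, was the 1 gene of the set that differed between the tumor genotypes, and it was lower in the absence of *Ndp*. Its log2 signals were 11.81, 11.85, 12.04 and 11.56 in *NdpKO;Ptch+/-* MBs, against 12.53, 12.27, 12.48 and 12.22 in *Ptch+/-* MBs. Every *NdpKO;Ptch+/-* MB lay below every *Ptch+/-* MB. The difference was -0.56 (SE 0.11, 95% CI -0.81 to -0.31), or 0.679-fold (limma, adjusted p = 0.0444). The exact two-sided permutation test gave p = 0.0286, the smallest value that 4 against 4 allows. Among the 8 measured genes, 1 passed the test and 1 had groups that did not overlap. For comparison, 3.96% of the 9648 genes with a measured level (2.07% of all genes) passed, 1.54% as higher and 2.42% as lower, and 15.0% had groups that did not overlap.

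The call for *Ezh2* was close to the threshold. It was lost when replicate 1, 2 or 4 of the *NdpKO;Ptch+/-* MBs or replicate 1, 2 or 3 of the *Ptch+/-* MBs was left out (adjusted p 0.0686 to 0.106), with differences of -0.59 to -0.47, and with the 8 tumor arrays fitted alone (adjusted p = 0.18).

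*Ezh2* in *Ptch+/-* MBs was also higher than in GNPs, which had log2 signals of 11.78, 11.78, 11.70 and 11.52. The difference between *Ptch+/-* MBs and GNPs was 0.67 (SE 0.11, 95% CI 0.43 to 0.92, adjusted p = 0.00251), or 1.60-fold, and the groups did not overlap. This call held in all 16 alternative settings, which changed the processing or left out 1 of the 8 arrays compared. These settings, here and below, keep the threshold of an adjusted p under 0.05. With a log2 change over 1 required as well, the call was lost. *NdpKO;Ptch+/-* MBs and GNPs overlapped, with a difference of 0.12 (95% CI -0.13 to 0.36, adjusted p = 0.582). The means were 11.81 ± 0.20 in *NdpKO;Ptch+/-* MBs, 12.37 ± 0.16 in *Ptch+/-* MBs and 11.70 ± 0.12 in WT GNPs (SD, n = 4), with *Ptch+/-* MBs highest and the other groups apart by less than their spread. The same samples enter these comparisons in pairs, so the 3 differences are not independent of each other.

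A further *Ezh2* probe with a much weaker signal gave 4.96, 6.44, 4.53 and 4.69 in *NdpKO;Ptch+/-* MBs, 6.19, 6.79, 5.81 and 6.89 in *Ptch+/-* MBs and 4.52, 4.44, 4.40 and 4.51 in WT GNPs. *Ptch+/-* MBs were again the group with the highest mean, but replicate 2 of the *NdpKO;Ptch+/-* MBs lay within their range. This probe differed by -1.26 between tumor genotypes (SE 0.40, adjusted p = 0.194) and was 1.95 higher in *Ptch+/-* MBs than in GNPs (SE 0.40, adjusted p = 0.00846). Only 2 of the 4 GNP arrays reached the background limit for it, so the second value is a fitted one. The remaining *Ezh2* probe was at background on all arrays.

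*Ezh1*, the catalytic subunit that PRC2 uses mainly in non-dividing cells, gave weak signals. Its values were 5.01, 4.72, 6.13 and 5.27 in *NdpKO;Ptch+/-* MBs, 4.76, 4.33, 4.55 and 4.46 in *Ptch+/-* MBs and 4.52, 4.49, 4.77 and 4.65 in WT GNPs. Replicate 3 of the *NdpKO;Ptch+/-* MBs was the highest, and replicate 2 of that group lay within the range of the other groups. The difference between tumor genotypes was 0.76 (SE 0.255, 95% CI 0.19 to 1.33), which did not pass (unadjusted p = 0.0143, adjusted p = 0.221, permutation p = 0.0571, exact). Against GNPs it was 0.68 in *NdpKO;Ptch+/-* MBs (adjusted p = 0.129) and -0.08 in *Ptch+/-* MBs (95% CI -0.65 to 0.49, adjusted p = 0.875).

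*Eed*, the subunit of PRC2 that binds the methylated histone tail, gave 9.37, 9.67, 9.00 and 8.87 in *NdpKO;Ptch+/-* MBs, 8.83, 8.94, 8.97 and 8.86 in *Ptch+/-* MBs and 9.41, 9.48, 9.25 and 9.47 in WT GNPs. The *Ptch+/-* MBs were all below the GNPs, whereas the *NdpKO;Ptch+/-* MBs spread over the ranges of both. *Eed* was lower in *Ptch+/-* MBs than in GNPs by a difference of -0.50 (SE 0.153, 95% CI -0.85 to -0.16), at an adjusted p of 0.0498. Each of the 8 fits that left out 1 array lost this call (adjusted p 0.0631 to 0.114). The difference was 0.33 between tumor genotypes (95% CI -0.01 to 0.67, adjusted p = 0.403) and -0.18 between *NdpKO;Ptch+/-* MBs and GNPs (95% CI -0.52 to 0.17, adjusted p = 0.543).

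The weaker *Eed* probe, which the annotation assigns to another transcript record of the gene, ran the other way against GNPs. It gave 5.63, 6.86, 5.09 and 5.55 in *NdpKO;Ptch+/-* MBs, 5.73, 6.20, 4.91 and 4.68 in *Ptch+/-* MBs and 4.22, 4.38, 4.70 and 4.39 in WT GNPs. Its difference from GNPs was 1.36 in *NdpKO;Ptch+/-* MBs (adjusted p = 0.065) and 0.96 in *Ptch+/-* MBs (adjusted p = 0.161), and neither passed. The direction of the *Eed* difference against GNPs therefore depended on the probe, and the mean of both probes put *Ptch+/-* MBs 0.23 above GNPs (adjusted p = 0.609).

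*Suz12*, the scaffold of PRC2, had log2 signals of 12.81, 12.74, 12.95 and 12.42 in *NdpKO;Ptch+/-* MBs, 13.02, 12.82, 13.03 and 12.74 in *Ptch+/-* MBs and 12.89, 12.84, 12.72 and 12.76 in WT GNPs. The groups overlapped in every comparison. The difference was -0.17 between tumor genotypes (95% CI -0.42 to 0.07, adjusted p = 0.588), -0.07 between *NdpKO;Ptch+/-* MBs and GNPs (95% CI -0.32 to 0.18, adjusted p = 0.756) and 0.10 between *Ptch+/-* MBs and GNPs (95% CI -0.15 to 0.35, adjusted p = 0.612).

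**Figure D2:**
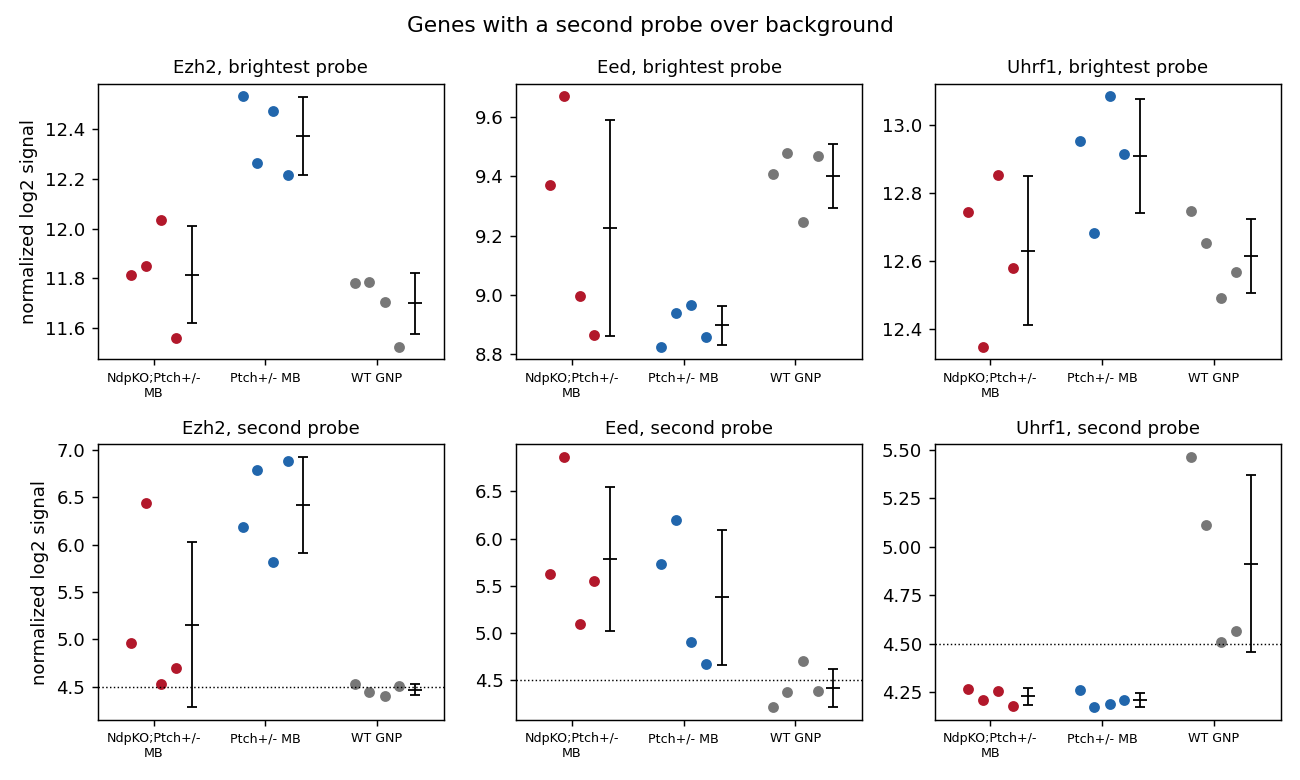
Normalized log2 signal (vertical axis, a separate scale for each panel) of the brightest probe (top) and a weaker probe (bottom) of *Ezh2*, *Eed* and *Uhrf1* in *NdpKO;Ptch+/-* MBs (red), *Ptch+/-* MBs (blue) and WT GNPs (grey). Points are arrays, bars are mean ± SD (n = 4) and the dotted line is the background limit of 4.5. Both *Ezh2* probes have their highest mean in *Ptch+/-* MBs, while the weaker probes of *Eed* and *Uhrf1* order the groups differently from the brightest ones.

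*Dnmt1*, the maintenance methyltransferase, was higher in tumors than in GNPs and did not pass between tumor genotypes. It gave 10.95, 10.54, 10.79 and 10.62 in *NdpKO;Ptch+/-* MBs, 10.94, 10.67, 10.85 and 11.08 in *Ptch+/-* MBs and 10.45, 10.46, 10.32 and 10.26 in WT GNPs. All 8 tumors lay above all 4 GNP samples, and the tumor genotypes overlapped. *Ptch+/-* MBs exceeded GNPs by 0.51 (SE 0.107, 95% CI 0.27 to 0.75), or 1.42-fold (adjusted p = 0.00927), a call that held in all 16 alternative settings. *NdpKO;Ptch+/-* MBs exceeded GNPs by 0.35 (SE 0.107, 95% CI 0.11 to 0.59, adjusted p = 0.0616), or 1.28-fold, which did not pass over all probes but did so in 5 of the 16 alternative settings (adjusted p over the settings 0.0255 to 0.145). The exact two-sided permutation p was 0.0286 in both. The difference between tumor genotypes was -0.16 (95% CI -0.40 to 0.08, adjusted p = 0.613).

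In the comparison of *NdpKO;Ptch+/-* MBs with GNPs, 0 of the 8 measured genes passed the limma test, 2 had an unadjusted p under 0.05 (*Ezh1* and *Dnmt1*) and 1 had groups that did not overlap, beside 27.5% of measured genes that passed (14.4% higher and 13.1% lower, and 15.7% of all genes) and 40.1% whose groups did not overlap. In the comparison of *Ptch+/-* MBs with GNPs, 3 of the 8 passed (37.5%), with *Ezh2* and *Dnmt1* higher and *Eed* lower, and the same 3 had groups that did not overlap. This share is near the background of 36.6% of measured genes (21.2% of all genes), of which 18.6% were higher and 18.0% lower, and 46.6% of measured genes had groups that did not overlap.

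*Uhrf1*, the recruiter of *Dnmt1* to hemimethylated DNA, gave 12.74, 12.35, 12.85 and 12.58 in *NdpKO;Ptch+/-* MBs, 12.95, 12.68, 13.09 and 12.92 in *Ptch+/-* MBs and 12.75, 12.65, 12.49 and 12.57 in WT GNPs. *Ptch+/-* MBs were highest on average, as for *Ezh2*, but their replicate 2 lay within the range of both other groups. The difference was -0.28 between tumor genotypes (95% CI -0.54 to -0.02, unadjusted p = 0.0402, adjusted p = 0.346), 0.02 between *NdpKO;Ptch+/-* MBs and GNPs (95% CI -0.25 to 0.28, adjusted p = 0.958) and 0.30 between *Ptch+/-* MBs and GNPs (95% CI 0.03 to 0.56, adjusted p = 0.125). None of these passed.

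A weaker *Uhrf1* probe was under the background limit in all 8 tumors, at 4.18 to 4.27 in *NdpKO;Ptch+/-* MBs and 4.17 to 4.26 in *Ptch+/-* MBs, and read 5.46, 5.11, 4.51 and 4.57 in GNPs. Taking the limit as the level in tumors, it was at least 1.33-fold lower than in GNPs in both genotypes (adjusted p = 0.0367 in *NdpKO;Ptch+/-* MBs and 0.0258 in *Ptch+/-* MBs). The brightest *Uhrf1* probe did not show this direction.

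*Dnmt3b*, a de novo methyltransferase, gave 9.34, 9.21, 9.38 and 9.20 in *NdpKO;Ptch+/-* MBs, 9.11, 9.29, 9.11 and 9.06 in *Ptch+/-* MBs and 9.36, 9.50, 9.12 and 9.25 in WT GNPs. The groups overlapped throughout, within a range of less than 1 unit on the log2 scale. The difference was 0.14 between tumor genotypes (95% CI -0.05 to 0.33, adjusted p = 0.554), -0.03 between *NdpKO;Ptch+/-* MBs and GNPs (95% CI -0.21 to 0.16, adjusted p = 0.889) and -0.17 between *Ptch+/-* MBs and GNPs (95% CI -0.35 to 0.02, adjusted p = 0.227).

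*Tet1*, which oxidizes methylcytosine, gave 9.15, 8.44, 9.33 and 9.51 in *NdpKO;Ptch+/-* MBs, 9.31, 9.01, 9.04 and 8.94 in *Ptch+/-* MBs and 9.64, 9.73, 9.18 and 9.29 in WT GNPs. Replicate 2 of the *NdpKO;Ptch+/-* MBs was the lowest of all samples, and the groups overlapped. The difference was 0.03 between tumor genotypes (95% CI -0.47 to 0.53, adjusted p = 0.984), -0.35 between *NdpKO;Ptch+/-* MBs and GNPs (95% CI -0.85 to 0.14, adjusted p = 0.377) and -0.39 between *Ptch+/-* MBs and GNPs (95% CI -0.88 to 0.11, adjusted p = 0.299). The intervals leave room for a change of up to 0.88 in size. *Dnmt3a*, the other de novo methyltransferase, read at most 4.13 and *Tet3*, the other Tet oxidase, at most 4.14 with their brightest probes.

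**Figure D3:**
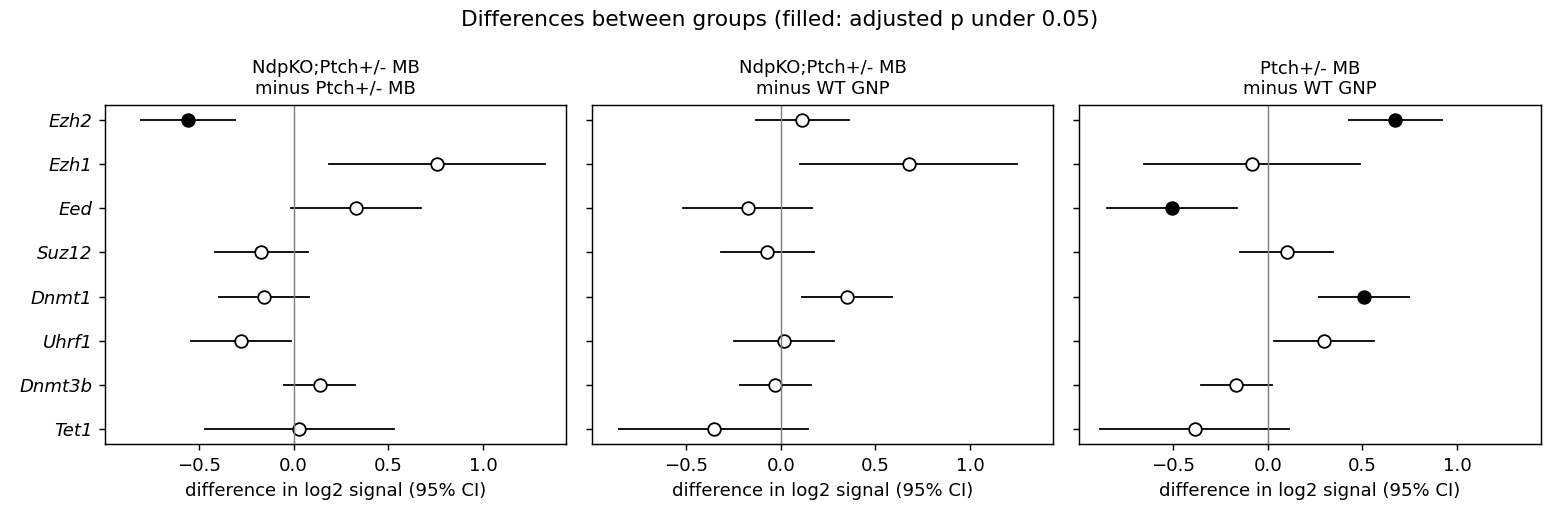
Difference in log2 signal (horizontal axis) for the 8 measured genes in *NdpKO;Ptch+/-* MBs minus *Ptch+/-* MBs (left), *NdpKO;Ptch+/-* MBs minus GNPs (middle) and *Ptch+/-* MBs minus GNPs (right). Points are limma estimates, lines are 95% confidence intervals and filled points have an adjusted p under 0.05. *Ezh2* is the 1 filled point between tumor genotypes at -0.56, no point is filled in the middle, and *Ezh2*, *Dnmt1* and *Eed* are filled on the right at 0.67, 0.51 and -0.50.

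Over the 8 measured genes the median difference was -0.06 between tumor genotypes, -0.01 between *NdpKO;Ptch+/-* MBs and GNPs and 0.01 between *Ptch+/-* MBs and GNPs. Over all measured genes these medians were 0.01, 0.03 and -0.00. No gene of the set had group means more than 0.76 apart, so none reached the span of 1 above which the genes with the most similar profile were to be named.

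The accessory subunits of PRC2 (*Rbbp4*, *Rbbp7*, *Jarid2*, *Mtf2*, *Phf1*, *Phf19* and *Aebp2*) were all on the array, and 4 of these 7 genes had a measured level. Between tumor genotypes 1 of the 4 measured genes passed (25.0%, beside 3.96% of all measured genes). It was *Aebp2*, a zinc finger cofactor that binds nucleosomes. Its log2 signals were 10.47, 10.38, 10.70 and 10.43 in *NdpKO;Ptch+/-* MBs, 11.16, 11.02, 11.35 and 11.21 in *Ptch+/-* MBs and 10.87, 10.94, 10.76 and 10.85 in WT GNPs. The 3 groups did not overlap, with *Ptch+/-* MBs highest and *NdpKO;Ptch+/-* MBs lowest. The difference was -0.69 between tumor genotypes (SE 0.0835, adjusted p = 0.00662), -0.36 between *NdpKO;Ptch+/-* MBs and GNPs (adjusted p = 0.0196) and 0.33 between *Ptch+/-* MBs and GNPs (adjusted p = 0.0238). The calls against GNPs were close to the threshold. That of *NdpKO;Ptch+/-* MBs was lost without replicate 1, 2 or 4 of these tumors or replicate 1 or 2 of the GNPs (adjusted p 0.0502 to 0.0574), and that of *Ptch+/-* MBs without replicate 3 or 4 of these tumors or replicate 1, 3 or 4 of the GNPs (adjusted p 0.0523 to 0.0654) and with the mean of all probes (difference 0.094, adjusted p = 0.204). Both further *Aebp2* probes over background had the lower mean in *NdpKO;Ptch+/-* MBs than in *Ptch+/-* MBs, at -0.98 (adjusted p = 0.0327) and -1.02 (adjusted p = 0.0959), and differed by 0.17 and 0.12 between *Ptch+/-* MBs and GNPs (adjusted p = 0.605 and 0.808). *Rbbp7*, a histone-binding subunit, averaged 11.45 ± 0.09 in *NdpKO;Ptch+/-* MBs, 11.38 ± 0.28 in *Ptch+/-* MBs and 11.96 ± 0.13 in WT GNPs (SD, n = 4). It was lower than in GNPs, with a difference of -0.51 in *NdpKO;Ptch+/-* MBs (adjusted p = 0.0244) and of -0.58 in *Ptch+/-* MBs (adjusted p = 0.0103). The call in *NdpKO;Ptch+/-* MBs was lost without replicate 1, 2 or 4 of these tumors or replicate 1, 2 or 3 of the GNPs (adjusted p 0.0506 to 0.0695) and with the mean of all probes (-0.42, adjusted p = 0.112). Further *Rbbp7* probes of similar signal gave -0.49 (adjusted p = 0.00878) and -0.46 (adjusted p = 0.0318) in that comparison. A weaker probe gave -0.64 and did not pass (adjusted p = 0.564), and the remaining one was at background. In both comparisons with GNPs, 2 of the 4 measured partners passed, against 27.5% (*NdpKO;Ptch+/-* MBs) and 36.6% (*Ptch+/-* MBs) of all measured genes.

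Polycomb repressive complex 1 (PRC1) binds the mark of PRC2 through its Cbx subunits and ubiquitinates histone H2A. Of its genes, 18 of 19 listed were on the array and 17 had a measured level. Between tumor genotypes 1 of the 17 measured genes passed (5.88%, beside 3.96% of all measured genes). It was *Phc1*, a Polyhomeotic subunit that lets the complex polymerize. It gave 11.42, 11.00, 11.22 and 11.33 in *NdpKO;Ptch+/-* MBs, 11.99, 11.80, 12.04 and 11.96 in *Ptch+/-* MBs and 11.44, 11.50, 11.55 and 11.59 in WT GNPs. The *Ptch+/-* MBs stood above both other groups. *Phc1* was lower in *NdpKO;Ptch+/-* MBs than in *Ptch+/-* MBs, with a difference of -0.71 (SE 0.0865, adjusted p = 0.00706), and another probe gave -0.70 (adjusted p = 0.0159). In *Ptch+/-* MBs it was 0.43 above GNPs (adjusted p = 0.00759).

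Against GNPs, 5 PRC1 genes passed in *NdpKO;Ptch+/-* MBs (2 higher, 3 lower) and 7 in *Ptch+/-* MBs (5 higher, 2 lower). Of the 17 measured, 29.4% thus passed in *NdpKO;Ptch+/-* MBs, near the 27.5% of all measured genes there, and 41.2% in *Ptch+/-* MBs, near the 36.6% of all measured genes. The largest of these differences was in *Cbx8*, a reader of the PRC2 mark, which averaged 7.32 ± 0.34 in *NdpKO;Ptch+/-* MBs, 7.25 ± 0.30 in *Ptch+/-* MBs and 9.08 ± 0.17 in WT GNPs. Its difference from GNPs was -1.76 in *NdpKO;Ptch+/-* MBs (adjusted p = 0.000338) and -1.83 in *Ptch+/-* MBs (adjusted p = 0.000191). *Rybp*, which marks variant PRC1 complexes, was lower in *NdpKO;Ptch+/-* MBs, with a difference from GNPs of -1.23 (adjusted p = 0.000962), and its difference of -0.50 in *Ptch+/-* MBs did not pass (adjusted p = 0.0614). Its paralog *Yaf2* was lower than in GNPs as well, with differences of -0.58 in *NdpKO;Ptch+/-* MBs (adjusted p = 0.0498) and -0.94 in *Ptch+/-* MBs (adjusted p = 0.00377). In *NdpKO;Ptch+/-* MBs this call was lost in 7 of the 8 fits that left out an array (adjusted p 0.0752 to 0.13), the exception being the fit without replicate 2 of these tumors. *Kdm2b*, which recruits a variant PRC1 to CpG islands, was higher than in GNPs by 0.70 in *NdpKO;Ptch+/-* MBs (adjusted p = 0.00179) and by 0.76 in *Ptch+/-* MBs (adjusted p = 0.000825). The subunit gene *Phc3* was higher in *NdpKO;Ptch+/-* MBs by 1.16 (adjusted p = 0.0332), or by 0.58 with the mean of its probes. That call was lost without replicate 1, 3 or 4 of these tumors or replicate 2, 3 or 4 of the GNPs (adjusted p 0.0637 to 0.0911). The brightest *Phc3* probe is assigned to a transcript record outside RefSeq. The further *Phc3* probe, which the annotation assigns to the RefSeq mRNA, was under the background limit on all arrays. In *Ptch+/-* MBs, *Cbx2* was higher by 1.05 (adjusted p = 0.00648), *Pcgf6* by 0.50 (adjusted p = 0.00697) and *Pcgf1* by 0.37 (adjusted p = 0.0137). *Rybp* and *Cbx2* did not pass between tumor genotypes (differences of -0.73, adjusted p = 0.0685, and -0.66, adjusted p = 0.18).

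**Figure D4:**
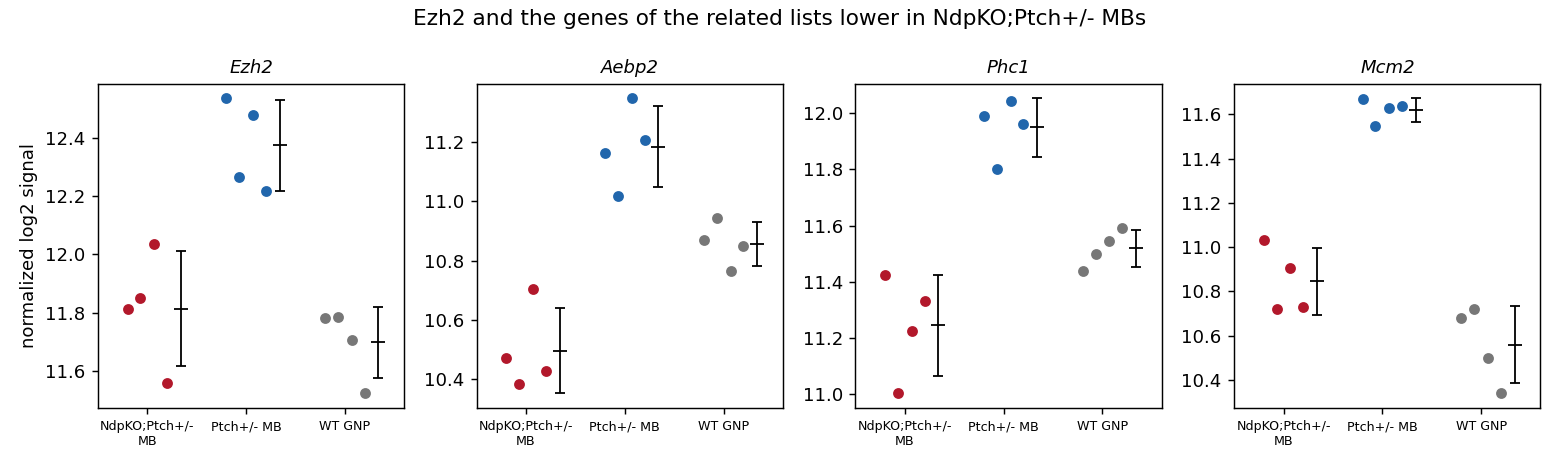
Normalized log2 signal (vertical axis, a separate scale for each gene) of *Ezh2*, *Aebp2*, *Phc1* and *Mcm2* in *NdpKO;Ptch+/-* MBs (red), *Ptch+/-* MBs (blue) and WT GNPs (grey). Points are arrays and bars are mean ± SD (n = 4). In each panel the 4 *Ptch+/-* MBs lie above the 4 *NdpKO;Ptch+/-* MBs and above the 4 GNP samples. These genes are shown because they passed as lower in *NdpKO;Ptch+/-* MBs, so the order of the tumor groups follows from the choice. No other gene of the set, the PRC2 partners, PRC1 or the replication list passed between tumor genotypes.

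Proteins that read methylated DNA or act in its repair (13 of 16 listed on the array, 10 with a measured level) gave 0 calls between tumor genotypes by limma, where 4 (*Mbd4*, *Zbtb33*, *Gadd45b* and *Gadd45g*) had an unadjusted p under 0.05. Against GNPs, 6 passed in *NdpKO;Ptch+/-* MBs (2 higher, 4 lower) and 7 in *Ptch+/-* MBs (3 higher, 4 lower). Of the 10 measured, 60.0% thus passed in *NdpKO;Ptch+/-* MBs (27.5% of all measured genes) and 70.0% in *Ptch+/-* MBs (36.6% of all measured genes). *Mbd2*, a reader of methylated CpG, averaged 7.67 ± 0.29 in *NdpKO;Ptch+/-* MBs, 7.23 ± 0.56 in *Ptch+/-* MBs and 9.43 ± 0.08 in WT GNPs. Its difference from GNPs was -1.76 in *NdpKO;Ptch+/-* MBs (adjusted p = 0.00154) and -2.20 in *Ptch+/-* MBs (adjusted p = 0.000302). The annotation assigns this probe to a transcript record outside RefSeq. The further *Mbd2* probe, assigned to the RefSeq mRNA, was under the background limit on all arrays (mean 4.11 in each group). The *Mbd2* differences therefore rest on a single probe. *Tdg*, the glycosylase that excises oxidized methylcytosine, was lower than in GNPs, with differences of -0.49 in *NdpKO;Ptch+/-* MBs (adjusted p = 0.00645) and -0.55 in *Ptch+/-* MBs (adjusted p = 0.00266). *Mbd4*, a glycosylase for mismatches at methylated CpG, was higher in *Ptch+/-* MBs by 1.35 (adjusted p = 0.00125), with a difference of 0.58 in *NdpKO;Ptch+/-* MBs that did not pass (adjusted p = 0.0873).

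*Gadd45b*, a stress-induced gene tied to active demethylation, was over the background limit in all 4 GNP samples (mean 7.43), in 2 of the 4 *Ptch+/-* MBs and in none of the *NdpKO;Ptch+/-* MBs, so it was at least 7.63-fold lower in *NdpKO;Ptch+/-* MBs than in GNPs (adjusted p = 1.01e-05). *Gadd45g* was lower than in GNPs, with differences of -1.50 in *NdpKO;Ptch+/-* MBs (adjusted p = 0.002) and -0.90 in *Ptch+/-* MBs (adjusted p = 0.0214). The call in *Ptch+/-* MBs was lost without replicate 1 or 3 of these tumors or replicate 2 or 4 of the GNPs (adjusted p 0.05 to 0.0574) and with these 8 arrays fitted alone (adjusted p = 0.0564). The weaker *Gadd45g* probe gave -1.54 in *Ptch+/-* MBs (adjusted p = 0.02). *Uhrf2*, the paralog of *Uhrf1*, was higher than in GNPs by 0.49 in *NdpKO;Ptch+/-* MBs (adjusted p = 0.0125) and by 0.57 in *Ptch+/-* MBs (adjusted p = 0.00442). *Mbd1* was higher by 0.19 in *NdpKO;Ptch+/-* MBs (adjusted p = 0.0245) and by 0.25 in *Ptch+/-* MBs (adjusted p = 0.0044). Both *Mbd1* calls were lost with an intensity trend and robust prior (adjusted p = 0.234 in *NdpKO;Ptch+/-* MBs and 0.0791 in *Ptch+/-* MBs) and with the mean of all probes (0.053 in *NdpKO;Ptch+/-* MBs and 0.095 in *Ptch+/-* MBs), and that of *NdpKO;Ptch+/-* MBs also without replicate 1, 2 or 3 of these tumors or replicate 2, 3 or 4 of the GNPs (adjusted p 0.058 to 0.0717).

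**Figure D5:**
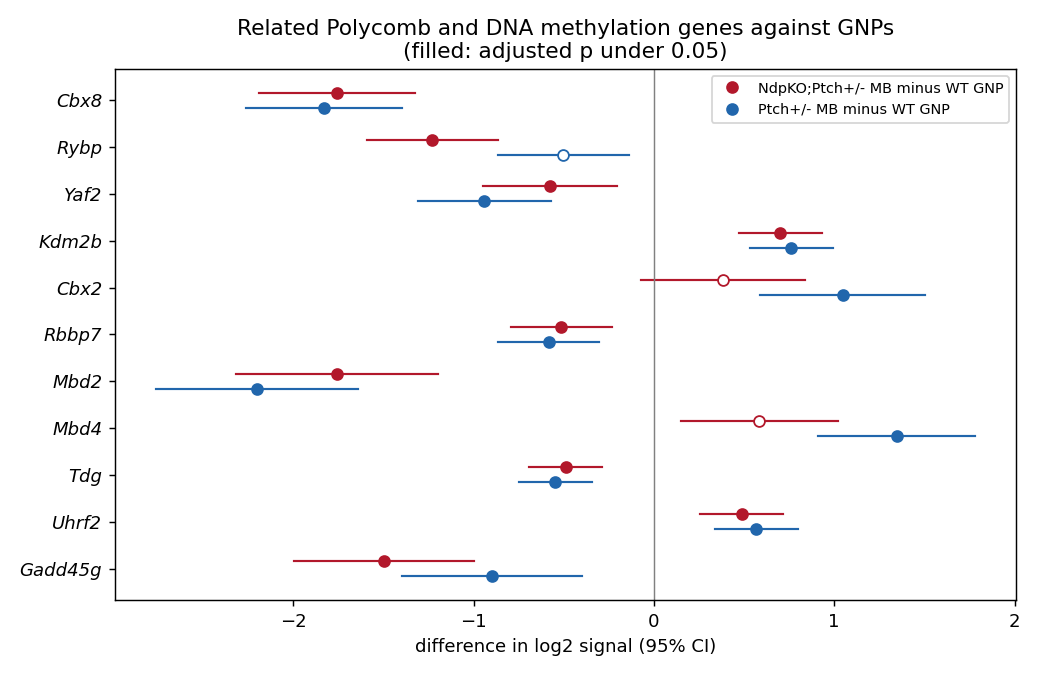
Difference in log2 signal from GNPs (horizontal axis) of 11 genes of PRC1, the PRC2 partners and the readers and repair proteins of DNA methylation, for *NdpKO;Ptch+/-* MBs (red) and *Ptch+/-* MBs (blue). Points are limma estimates, lines are 95% confidence intervals and filled points have an adjusted p under 0.05. Of the 11 genes drawn, *Cbx8* and *Mbd2* lie furthest below 0 in both tumor genotypes, and *Rybp*, *Cbx2* and *Mbd4* have an open point in 1 of them. *Gadd45b*, which had a larger difference from GNPs, and other genes of these lists that passed are not drawn. Both tumor groups share the same GNP samples.

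Genes that counteract PRC2 or PRC1 (*Kdm6a*, *Kdm6b*, *Bap1*, *Asxl1* and *Asxl2*) gave 0 calls by limma among the 4 with a measured level, of which 1 (*Asxl1*, in *Ptch+/-* MBs against GNPs) had an unadjusted p under 0.05. Hox genes, which Polycomb proteins keep silent outside their axial domains, were under the background limit on all arrays in 37 of 38 measured cases, the exception being *Hoxa13*, at 4.42 to 4.95 in *NdpKO;Ptch+/-* MBs, 4.27 to 4.71 in *Ptch+/-* MBs and 4.28 to 4.57 in WT GNPs. The 12 germline genes on the list, such as *Dazl* and *Sycp3*, which promoter methylation keeps silent in somatic cells, were under the limit on all arrays. Calls for *Asxl2*, *Hoxa9* and *Hoxb7* against GNPs lay wholly under the limit and were not counted.

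DNA replication genes were listed because *Ezh2*, *Dnmt1* and *Uhrf1* are expressed with them in dividing cells. Of the 22, 21 had a measured level. Between tumor genotypes 1 of these passed (4.76%, beside 3.96% of all measured genes), the helicase subunit gene *Mcm2*. It gave 11.03, 10.72, 10.90 and 10.73 in *NdpKO;Ptch+/-* MBs, 11.67, 11.55, 11.63 and 11.64 in *Ptch+/-* MBs and 10.68, 10.72, 10.50 and 10.34 in WT GNPs. *Mcm2* was lower in *NdpKO;Ptch+/-* MBs than in *Ptch+/-* MBs, with a difference of -0.77 (SE 0.0935, adjusted p = 0.00661), and was 1.06 higher in *Ptch+/-* MBs than in GNPs (adjusted p = 6.08e-05). The mean of the 21 measured genes ran from 9.90 to 10.21 in *NdpKO;Ptch+/-* MBs, from 9.96 to 10.25 in *Ptch+/-* MBs and from 9.75 to 10.10 in WT GNPs, and those ranges overlap. Against GNPs, 5 of the 22 were higher in *NdpKO;Ptch+/-* MBs. They were the polymerase gene *Pole* by 1.26 (adjusted p = 0.00187), *Cdc45* by 0.77 (0.00585), *Mcm7* by 0.55 (0.00396), *Mcm6* by 0.47 (0.0468) and *Mcm4* by 0.38 (0.0342). The *Mcm4* and *Mcm6* calls were each lost in 5 of the 8 fits that left out an array. Further probes gave -1.15 and -1.28 for *Mcm4* and 0.02 for *Mcm7*, and none of these passed. In *Ptch+/-* MBs 8 genes were higher and 1, *Tyms*, was lower. Of the 21 measured, 23.8% thus passed in *NdpKO;Ptch+/-* MBs (27.5% of all measured genes) and 42.9% in *Ptch+/-* MBs (36.6% of all measured genes). The *Tyms* call (-0.57, adjusted p = 0.0299) was lost without replicate 2, 3 or 4 of the *Ptch+/-* MBs or replicate 1, 2 or 4 of the GNPs (adjusted p 0.0582 to 0.0804). A weaker *Tyms* probe over background gave -1.04 (adjusted p = 0.00217) in *Ptch+/-* MBs against GNPs, and the others were at background. Mitotic genes (13 measured, 10 over background) gave 0 calls between tumor genotypes by limma (0 with an unadjusted p under 0.05) and 1 against GNPs, *Bub1b*, which was 0.55 higher in *NdpKO;Ptch+/-* MBs (adjusted p = 0.0287) and lost this call without replicate 1 or 3 of these tumors or any 1 GNP sample (adjusted p 0.052 to 0.0699). The weaker *Bub1b* probe gave 0.62 in that comparison (adjusted p = 0.0207).

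Markers of other cell types moved with the groups. The mean log2 signal of 8 endothelial genes was 7.08 to 8.07 in *NdpKO;Ptch+/-* MBs, 6.28 to 7.16 in *Ptch+/-* MBs and 7.52 to 8.20 in WT GNPs, with *Kdr* and *Tie1* under background throughout, and that of 6 pericyte and smooth muscle genes was 7.02 to 7.57 in *NdpKO;Ptch+/-* MBs, 6.07 to 6.70 in *Ptch+/-* MBs and 6.37 to 6.78 in WT GNPs. Between tumor genotypes, 2 of the 8 measured endothelial genes (*Emcn* and *Robo4*, 25.0%) and 1 of the 6 measured mural genes (*Vtn*, 16.7%) passed, beside 3.96% of all measured genes. All of them were higher in *NdpKO;Ptch+/-* MBs. Microglial genes averaged 7.91 to 8.47 in *NdpKO;Ptch+/-* MBs, 7.99 to 9.13 in *Ptch+/-* MBs and 5.49 to 5.95 in WT GNPs. In each tumor genotype 6 of the 8 measured (75.0%) were higher than in GNPs. The shares of all measured genes called higher were 14.4% (*NdpKO;Ptch+/-* MBs) and 18.6% (*Ptch+/-* MBs). Oligodendrocyte genes averaged 7.24 to 7.80 in *NdpKO;Ptch+/-* MBs, 6.89 to 7.65 in *Ptch+/-* MBs and 8.66 to 10.02 in WT GNPs. In each tumor genotype 5 (*Mbp*, *Mog*, *Mag*, *Mobp* and *Cnp*) were lower than in GNPs, but 2 (*Olig1* and *Pdgfra*) were higher. That is 77.8% of the 9 measured, beside 27.5% (*NdpKO;Ptch+/-* MBs) and 36.6% (*Ptch+/-* MBs) of all measured genes. Neuronal genes averaged 10.09 to 10.77 in *NdpKO;Ptch+/-* MBs, 10.09 to 10.64 in *Ptch+/-* MBs and 11.55 to 11.73 in WT GNPs. In each tumor genotype *Syt1*, *Nefm* and *Cbln1* were lower than in GNPs, but *Map2* was higher (66.7% of the 6 measured). Between tumor genotypes *Nefm* passed (16.7%) and was higher in *NdpKO;Ptch+/-* MBs. Astrocyte and Bergmann glia genes averaged 8.90 to 9.29 in *NdpKO;Ptch+/-* MBs, 8.47 to 9.72 in *Ptch+/-* MBs and 8.39 to 8.62 in WT GNPs. Of these 10, 4 were higher in *NdpKO;Ptch+/-* MBs than in GNPs, 3 were higher and 1 lower in *Ptch+/-* MBs than in GNPs, and 1 (*Hopx*) was higher in *NdpKO;Ptch+/-* MBs than in *Ptch+/-* MBs. The hemoglobin gene *Hba-a1* read 10.18 to 12.69 in *NdpKO;Ptch+/-* MBs, 6.15 to 10.63 in *Ptch+/-* MBs and 11.03 to 12.91 in WT GNPs, with a difference of 2.80 between tumor genotypes (adjusted p = 0.27) and of -3.63 between *Ptch+/-* MBs and GNPs (adjusted p = 0.0385), and the other 2 blood genes on the array were under background. Of the 9 GNP markers on the array, *Atoh1*, *Mycn* and *Gli1* were under background on all arrays, and the 6 with a signal averaged 10.55 to 10.72 in *NdpKO;Ptch+/-* MBs, 10.62 to 10.94 in *Ptch+/-* MBs and 10.64 to 10.88 in WT GNPs. Relative to GNPs, *Sfrp1* was higher and *Zic2* lower in *NdpKO;Ptch+/-* MBs (33.3% of the 6). In *Ptch+/-* MBs *Barhl1*, *Sfrp1* and *Gli2* were higher and *Pax6* was lower (66.7%). The part of these cell types in the differences of *Ezh2*, *Dnmt1* and *Eed* was not tested.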

How the data were processed

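RNA of 12 samples was hybridised to MouseWG-6 v2.0 BeadChips (45281 probes). The deposited values are log2 signals. To make them, the authors ran neqc (limma) on the BeadStudio signals, which subtracts background estimated from negative control probes and quantile-normalizes the arrays, so general shifts between arrays are removed. Every array had a median of 4.15, and 31.8% to 32.5% of probes reached 4.5. The version of limma behind the deposited values is not given in the sources used here, and no batch labels were found.

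From these values, groups were compared in R 4.3.3 with limma 3.58.1 (lmFit and eBayes, one group-means model over 12 arrays, no covariates, Benjamini-Hochberg over all probes, adjusted p under 0.05). GEO's platform annotation gave 1 symbol to 34885 probes, several to 18 and none to 10378. All 10 genes of the set are named, and up to 4 genes per related list and comparison with the smallest adjusted p, or all where 5 or fewer passed in a direction, among those over background. A signal under 4.5 on all arrays of a group gives only a bound. The genes and lists were chosen with earlier results of these data known. In simulated tumor arrays, 8 of 100 probes shifted by 0.5 (log2) and 51 of 100 shifted by 1 were recovered (5 false calls). For *NdpKO;Ptch+/-* MBs and GNPs these numbers were 10 and 52 (2 false calls), and for *Ptch+/-* MBs and GNPs 14 and 52 (1 false call). The simulations gave only 64, 64 and 67 calls in all, whereas the real comparisons called 624, 5614 and 7814 probes. With fewer calls the Benjamini-Hochberg threshold is stricter, so these shares are not the recovery to expect in the real comparisons. As alternatives, the arrays were quantile-normalized again or centred on their medians, dim probes were dropped, eBayes was given a trend and robust prior, arrays were weighted, the 8 arrays of a comparison were fitted alone, the replicate number was blocked, all probes of a gene were averaged, thresholds were tightened, and each array was left out. The number of arrays limits the precision.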

Additional observations from a re-analysis of the deposited data

Results flagged for a closer look

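*Mbd2* in *Ptch+/-* MBs held 1 sample far from the others, with a log2 signal of 8.07 in replicate 2 and 6.93 to 6.97 in the other 3 (ratio of gap to range 0.969, above the 95% critical value of the Dixon test). It was the 1 such case in 102 groups of 4 examined, where chance alone gives about 5%, so such cases were fewer than chance alone gives. Without replicate 2, *Mbd2* was lower in *Ptch+/-* MBs than in GNPs by -2.48 (limma, adjusted p = 1.18e-05). This sample was picked for its distance from the others, so leaving it out narrows the spread, and the smaller adjusted p adds no support.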

How the results depend on the processing

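Between tumor genotypes, 1 gene of the set passed (*Ezh2*). The count was 0 with array weights, with only the 8 tumor arrays, at an adjusted p under 0.01 and with a log2 change over 1 required, and ran from 0 to 1 when single arrays were left out. *Ezh2* kept its direction in all 16 settings and passed in 8 (adjusted p 0.00966 to 0.18). Between *NdpKO;Ptch+/-* MBs and GNPs the count was 0, but 1 (*Dnmt1*) with dim probes left out, an intensity trend and robust prior, array weights or the mean of a gene's probes, and 0 to 1 when arrays were left out (1 without replicate 2 of the *NdpKO;Ptch+/-* MBs). Between *Ptch+/-* MBs and GNPs it was 3, 0 with a log2 change over 1 required, and 2 in every fit that left out an array. The cause was not tested where single arrays changed a call. With the mean of all probes, differences from GNPs turned in *NdpKO;Ptch+/-* MBs to 0.59 for *Eed*, -0.33 for *Uhrf1* and -0.68 for *Mcm4*, and in *Ptch+/-* MBs to 0.23 for *Eed*, -0.20 for *Uhrf1* and -0.35 for *Mcm4*. The counts of related genes then changed from 5 to 2 for replication and 1 to 2 for mitosis (*NdpKO;Ptch+/-* MBs against GNPs), 0 to 1 for mitosis (*Ptch+/-* MBs against GNPs), 2 to 1 for PRC2 partners (each tumor genotype against GNPs) and 1 to 2 for PRC1 (between tumor genotypes). Leaving out arrays turned differences near 0, with ranges of -0.10 to 0.25 for *Tet1* between tumor genotypes and, in *NdpKO;Ptch+/-* MBs against GNPs, of -0.058 to 0.11 for *Uhrf1*, -0.15 to 0.031 for *Suz12* and -0.090 to 0.035 for *Dnmt3b*. Of the named genes' values under alternatives, 957 kept direction and side of the threshold, 96 lost and 5 gained a call and 14 turned. *Aebp2* and *Phc1* passed between tumor genotypes in 15 of 16 settings, not with the tumors alone (adjusted p = 0.0746 and 0.0766), and *Mcm2* in all 16.

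Same-numbered samples shared only a number, since deviations from group means correlated at -0.21 to 0.14. With the replicate number as a block the counts were 1, 0 and 2, with *Eed* lost (adjusted p = 0.0645), as were *Rbbp7* and *Bub1b* in *NdpKO;Ptch+/-* MBs and *Gadd45g* and *Tyms* in *Ptch+/-* MBs against GNPs (0.0547 to 0.0678).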
